A study of Mus musculus with 12 samples.

Results

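Cells of the mouse dendritic cell line DC2.4 (genotype wild type) were exposed to extracellular vesicles released by T cells, and their mRNA was sequenced. Described here is the contrast between vesicles of non-activated T cells with their DNA left in place (NTEV) and vesicles of activated T cells that had been pretreated with the nuclease Baseline-ZERO DNase (DNase-treated ATEV). These 2 groups make up 6 of the 12 libraries, 3 in each, and were taken by their treatment labels; every gene with enough counts was compared, 13261 of 42687 listed. The other 6 libraries, 3 of cells given PBS and 3 of cells given untreated vesicles of activated T cells (ATEV), entered the fit. Their levels are given as a reference for some genes. NTEV were used at 30 µg/mL and DNase-treated ATEV at 15 µg/mL, the same amount as untreated ATEV. The protocol gives 5 µg/mL of vesicle DNA beside the NTEV amount, and the wording leaves unclear whether this also covers ATEV. NTEV and DNase-treated ATEV therefore differ in the activation state of the donor T cells, in the amount of vesicles and in DNase exposure, and the contributions of these 3 differences cannot be told apart. Cells were replated a day after treatment and the procedure was done 3 times; the protocol does not say if these were rounds on 1 culture or independent experiments. No label ties the 3 libraries of a group to separate cultures, so the spread between the libraries of a group may be technical. Each p-value reflects that spread, estimated over all 12 libraries and not the 6 compared ones alone.

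T cells release membrane vesicles that carry protein, lipid, RNA and DNA to other cells, and dendritic cells take such material up and present antigen from it to T cells. Foreign or displaced DNA in the cytosol can be sensed by cGAS, which signals through STING (encoded by Tmem173) to induce type I interferons, whereas interferon-gamma made by activated T cells induces guanylate-binding proteins in the recipient. Myeloid cells also respond to microbial or inflammatory stimuli through NF-kB, which drives chemokines, acute-phase proteins and its own inhibitor, and through NRF2, which drives antioxidant and iron-storage genes.

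The library totals of the 2 groups ran from 19.9 to 30.4 M counts (1 M is 1e6). On the first principal component of all 12 libraries, which held 34.9% of the variance, replicate 1 of NTEV (-21.5) and of DNase-treated ATEV (-30.4) lay on the side of the PBS libraries (-41.8 to -14.6), apart from replicates 2 and 3 (4.41 to 41.7). Of 19 dendritic cell lineage markers, Clec9a and Kit had 0 counts in every library. Flt3, Xcr1, Irf4, Itgae, Cd209a and Siglech reached at most 0.337 CPM (counts per 1e6 counts, scaled by TMM). Irf8 was well expressed, and Sirpa was the largest part of the sum (526 to 776 CPM with NTEV, 501 to 627 CPM with DNase-treated ATEV). The summed level of the list ran from 1257 to 1547 CPM with NTEV and from 1199 to 1419 CPM with DNase-treated ATEV. The summed level of 17 macrophage markers was 5548 to 5925 CPM with NTEV and 3560 to 3909 CPM with DNase-treated ATEV, against 3666 to 4456 CPM in PBS. Lyz2 made up most of that gap, and members moved both ways: 7 of 15 tested had a log2 fold change above 0, and Fcgr1, at 39.9 to 56.5 CPM with NTEV and 69.0 to 75.1 CPM with DNase-treated ATEV, lay lower without overlap. Markers of T cells, the source of the vesicles, summed to 74.7 to 132 CPM with NTEV and 100 to 112 CPM with DNase-treated ATEV, against 90.6 to 137 CPM in PBS. Most of the sum was Il7r and Cd28 (37.3 to 75.4 and 26.6 to 41.4 CPM with NTEV). Cd3d, Cd3g, Cd247, Cd2 and Trac reached at most 0.160 CPM, and 8 of 23, among them Cd3e, Cd8a, Trbc1 and Ifng, had 0 counts throughout. B cell markers summed to 15.7 to 22.2 CPM with NTEV and 37.3 to 62.1 CPM with DNase-treated ATEV, a gap mostly of Ighm (11.04 to 18.9 against 34.0 to 57.4 CPM); 6 of 14 members, among them Ms4a1, had 0 counts throughout, and Cd22 overlapped (1.59 to 3.23 against 1.30 to 2.46 CPM). Fibroblast and stromal markers summed to 6.29 to 8.25 CPM with NTEV and 3.80 to 5.35 CPM with DNase-treated ATEV. What part these shifts in marker levels had in the results was not tested, and in such bulk samples fewer cells of a type and less RNA per cell cannot be told apart.

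NTEV-treated cells held more mRNA of several inflammatory, iron-handling and antioxidant genes than cells given DNase-treated ATEV, and less mRNA of the guanylate-binding proteins Gbp3 and Gbp7 and of Adm, Arg1 and F13a1. Of 13261 genes, 90 were called (0.679%) by the edgeR quasi-likelihood test at a Benjamini-Hochberg adjusted p under 0.05. Of these, 62 were higher with NTEV (0.468% of all genes tested) and 28 lower (0.211%), and 38 and 27 of them differed at least 2-fold. The median log2 fold change of all genes tested was -0.01. The libraries of the 2 groups did not overlap for any of the 90 genes; over all genes tested the same held for 8.45% in the higher and 7.74% in the lower direction. At an unadjusted p under 0.05 the count was 1625 genes. Of the lower genes named here, Gbp3 and Gbp7 kept their call whichever library of the 2 groups was left out. Both lost it in an edgeR fit of the 6 libraries alone (adjusted p = 0.0850 for both). Adm, Arg1 and F13a1 lost it without some single libraries and with limma-voom.

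**Figure D1:**
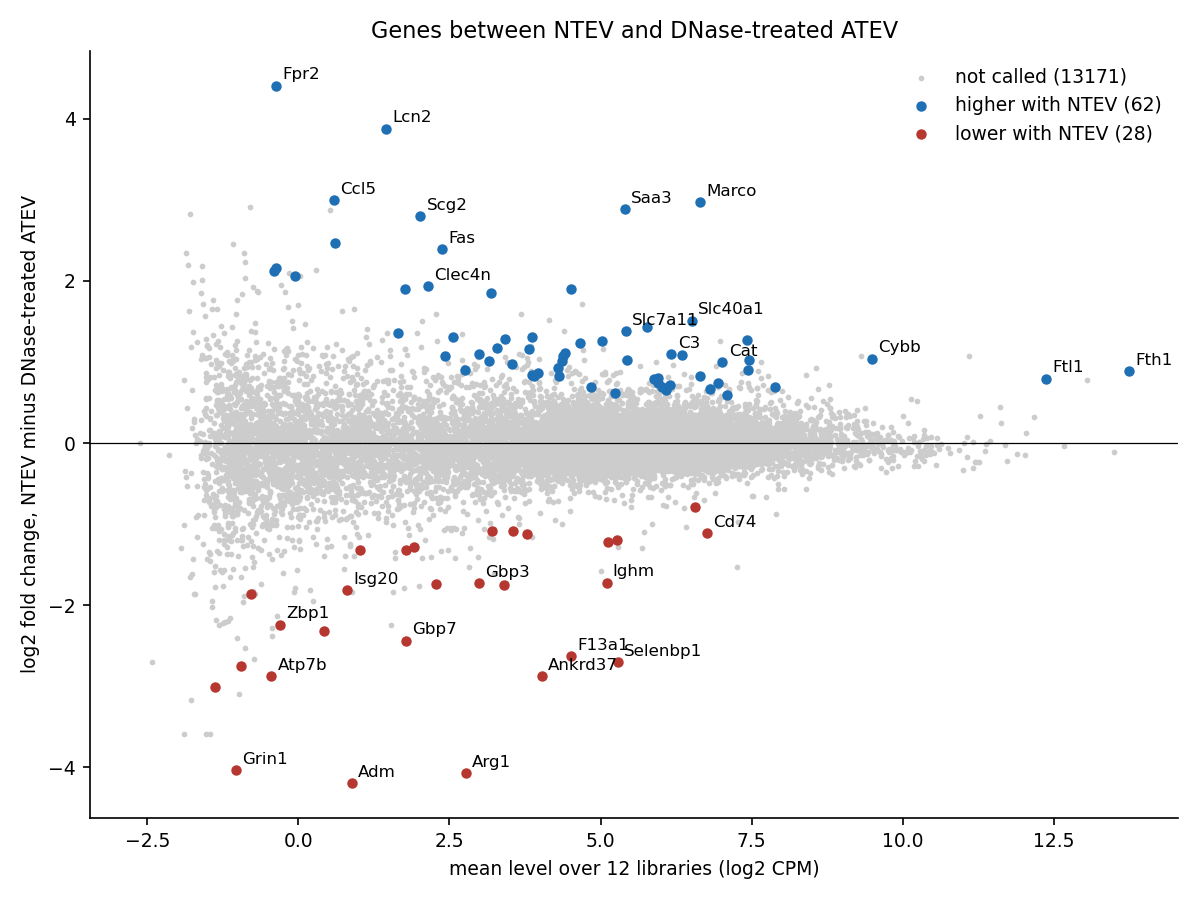
Log2 fold change of NTEV over DNase-treated ATEV (vertical axis) against the mean level in log2 CPM (horizontal axis) for the 13261 genes tested, 1 point a gene, with the 62 genes called higher and the 28 called lower in colour. The called genes lie on both sides of 0 over a wide range of levels, and Lcn2 is among the largest rises.

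The count of calls moved with single libraries. Leaving out NTEV replicate 1 gave 321 calls, whereas leaving out NTEV replicate 2, NTEV replicate 3, DNase-treated ATEV replicate 2 or DNase-treated ATEV replicate 3 gave 22, 16, 4 and 8. Without DNase-treated ATEV replicate 1 there were 65, of which 32 were higher and 33 lower, so that 49.2% in place of 68.9% of the calls were higher. Lcn2, Gbp7, Slc40a1 and Gbp3 were called whichever 1 of the 6 libraries was left out, and Fpr2 in none of these 6 fits. With the replicate number as a block in all 4 groups the count was 41. With a block for NTEV and DNase-treated ATEV alone it was 205, which held all 90. In a fit of the 6 libraries alone it was 609 with the block and 2 without it. Those 2 were Slc40a1 and Slc6a12 (edgeR adjusted p = 0.0403 for both). Lcn2, Gbp7 and Gbp3 were not called in that fit (adjusted p = 0.0627, 0.0850 and 0.0850).

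**Figure D2:**
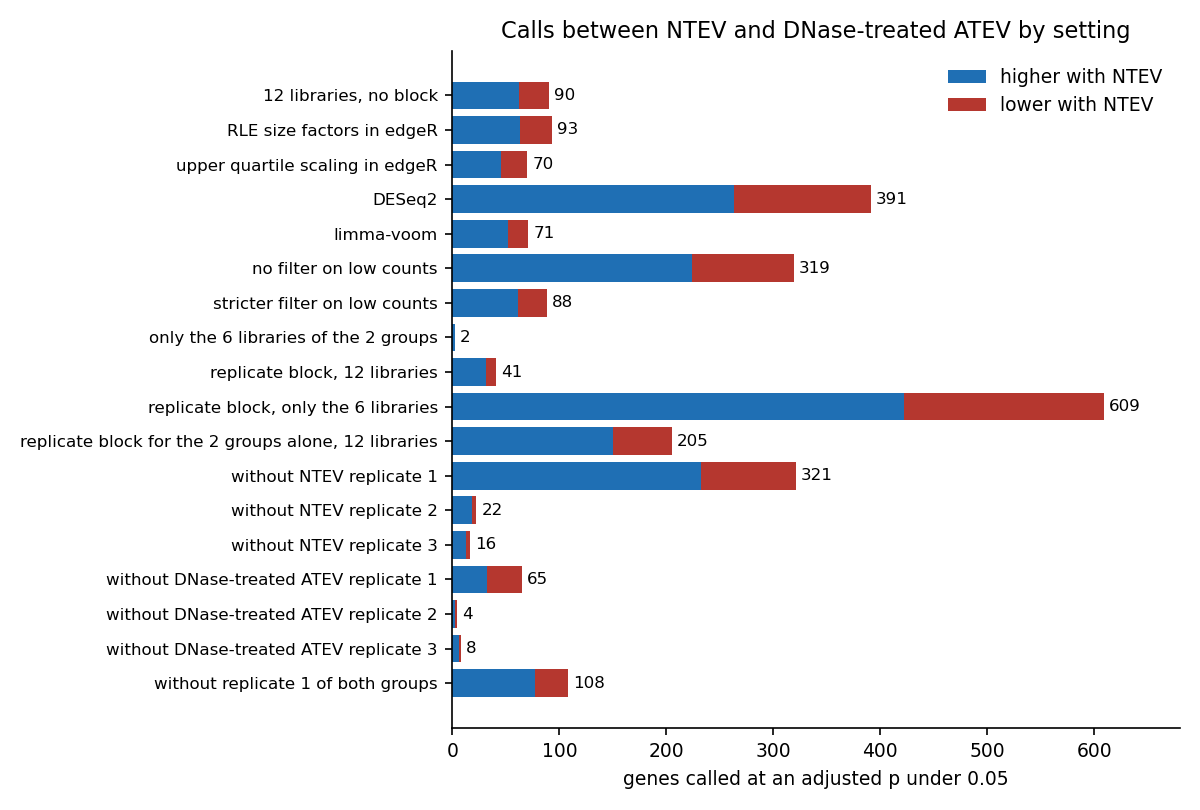
Number of genes called between NTEV and DNase-treated ATEV under each setting of the fit, with the genes higher (blue) and lower (red) with NTEV stacked in 1 bar on an axis that starts at 0. The count is 90 as reported and ranges from 2 (only the 6 libraries) to 609 (the same 6 libraries with the replicate block).

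Each treatment was also set against PBS. For NTEV 306 genes (2.31%) were called, 225 higher and 81 lower, and for DNase-treated ATEV 0 (0%) by edgeR, where 791 genes had an unadjusted p under 0.05, DESeq2 called 38 and limma-voom 0. Both contrasts use the same PBS libraries, and the difference between their counts is not itself a test. For Lcn2 the log2 fold change against PBS was 4.75 with NTEV (adjusted p = 0.000314) and 0.87 with DNase-treated ATEV (adjusted p = 0.824). For Fas it was 2.13 (adjusted p = 0.00434) and -0.26 (adjusted p = 0.866). Gbp3 showed the reverse order, with -0.18 for NTEV (adjusted p = 0.693) and 1.54 for DNase-treated ATEV (adjusted p = 0.0612). The latter was the smallest adjusted p of its contrast, but Gbp3 was not alone at that value. Slc40a1 lay on both sides of PBS, at 0.77 (adjusted p = 0.0348) and -0.74 (adjusted p = 0.399). Without 1 of the libraries the count against PBS ran from 34 to 1685 for NTEV, with the lowest counts without PBS replicate 3 (34), NTEV replicate 3 (40) and PBS replicate 2 (44) and the highest without NTEV replicate 1.

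Several inflammatory genes were higher with NTEV. Lcn2, which encodes lipocalin 2, a secreted protein that binds bacterial iron carriers, stood at 26.6, 14.7 and 15.3 CPM in the NTEV libraries and at 1.49, 0.568 and 1.75 CPM in the DNase-treated ATEV libraries. Every NTEV library exceeded every DNase-treated library. PBS was at 0.692 ± 0.304 CPM (SD, n = 3) and untreated ATEV at 3.19 ± 0.18 CPM. The log2 fold change was 3.88 ± 0.38 (SE; edgeR adjusted p = 0.00165), a 14.7-fold difference. Saa3, an acute-phase serum amyloid protein with close copies in the mouse genome, was at 149, 149 and 74.8 CPM with NTEV and at 23.1, 14.0 and 13.4 CPM with DNase-treated ATEV. NTEV replicate 3 was the lowest of its group, still above the other group, and the log2 fold change was 2.89 ± 0.49 (adjusted p = 0.0234). Ccl5, a chemokine that attracts T cells and monocytes, was at 6.97, 4.84 and 2.14 CPM with NTEV and at 0.818, 0.521 and 0.417 CPM with DNase-treated ATEV, a log2 fold change of 3.00 ± 0.48 (adjusted p = 0.0199). The fourth called member of the list was Nfkbia, the inhibitor IkB-alpha that NF-kB itself induces. Its levels were 38.6, 39.1 and 34.3 CPM with NTEV and 22.2, 20.6 and 26.7 CPM with DNase-treated ATEV, a smaller shift than that of Lcn2 but also without overlap (log2 fold change 0.69 ± 0.13, adjusted p = 0.0386). Of the 32 tested NF-kB targets and inflammatory mediators, 4 were higher and 0 lower, 15 lay higher without overlap, and the median log2 fold change was 0.63. The shares over all genes tested were 0.468% called higher, 0.211% called lower and 8.45% higher without overlap. Tnf, the central inflammatory cytokine, did not pass the test (21.7, 23.5 and 25.7 CPM against 8.96, 15.2 and 12.2 CPM; adjusted p = 0.167), nor did the monocyte chemokine Ccl2 (adjusted p = 0.820). Without DNase-treated ATEV replicate 2 or 3, Saa3, Ccl5 and Nfkbia were no longer called; nor was Saa3 without NTEV replicate 2, nor Nfkbia without NTEV replicate 2, NTEV replicate 3 or DNase-treated ATEV replicate 1 (highest adjusted p 0.149, 0.136 and 0.220).

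**Figure D3:**
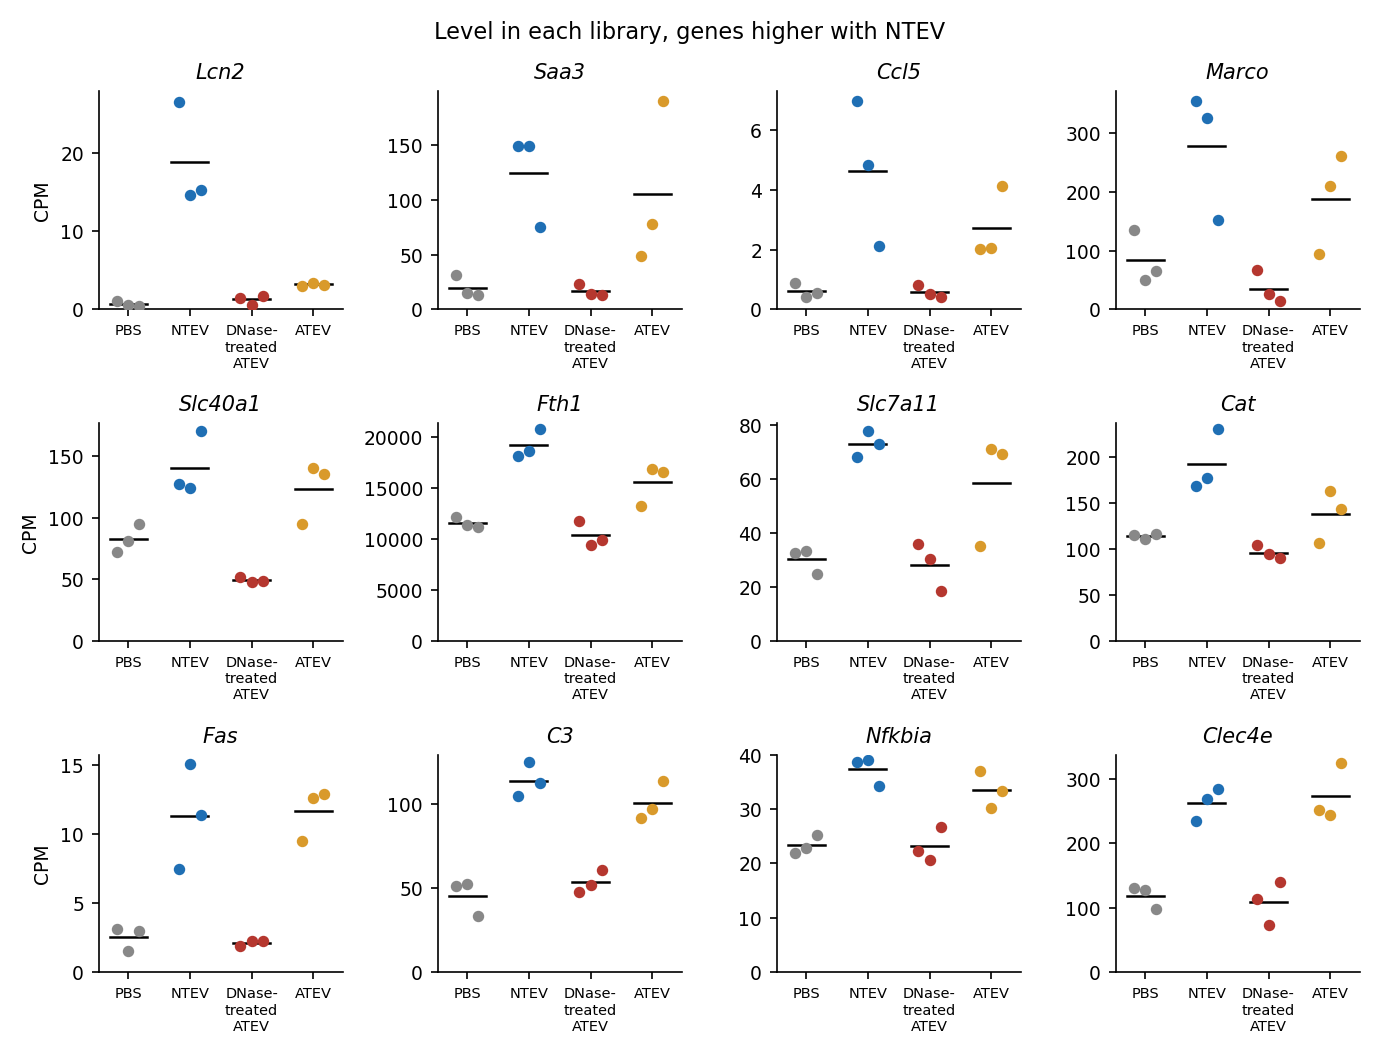
CPM (linear axis from 0) of 12 genes higher with NTEV in each library, 1 panel a gene, with the 4 groups on the horizontal axis, points for libraries and a black line for the group mean. In each panel the 3 NTEV points lie above the 3 DNase-treated ATEV points; for Lcn2 the NTEV points are at 14.7 to 26.6 CPM and the DNase-treated points at 0.568 to 1.75 CPM.

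The promoter of Nfkbia is shown because its NF-kB sites are a textbook example of a feedback loop, and those of Gbp3 and Gbp7 because both genes were called lower with NTEV whichever of the 6 libraries was left out. The sequences are RefSeq's (build GRCm38.p6), 5′ to 3′ on the gene's strand, and hold the 250 bases before the first base of the gene. Capitals mark matches to the kB consensus in Nfkbia and to the interferon-stimulated response element (ISRE: GAAA, 2 bases of any kind, GAAA; either strand, overlapping matches joined) in Gbp3 and Gbp7.
Nfkbia, chr12:55492648-55492897, minus strand: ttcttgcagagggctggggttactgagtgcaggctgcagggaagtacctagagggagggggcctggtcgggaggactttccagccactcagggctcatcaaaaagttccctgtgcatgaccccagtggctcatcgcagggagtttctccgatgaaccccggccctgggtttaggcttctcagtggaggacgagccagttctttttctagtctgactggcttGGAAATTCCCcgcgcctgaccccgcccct
Gbp7, chr3:142530086-142530335, plus strand: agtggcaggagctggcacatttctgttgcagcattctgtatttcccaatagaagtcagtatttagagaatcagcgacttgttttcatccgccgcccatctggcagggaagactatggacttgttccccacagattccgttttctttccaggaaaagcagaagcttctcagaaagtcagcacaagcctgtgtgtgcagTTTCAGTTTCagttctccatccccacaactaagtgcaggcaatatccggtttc
Gbp3, chr3:142559794-142560043, plus strand: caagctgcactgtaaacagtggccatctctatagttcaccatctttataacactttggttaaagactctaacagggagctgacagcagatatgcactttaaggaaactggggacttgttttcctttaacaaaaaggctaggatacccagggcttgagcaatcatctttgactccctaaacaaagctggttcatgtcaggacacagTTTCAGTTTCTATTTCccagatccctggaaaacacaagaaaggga
The last match began 29 bases before the gene start in Nfkbia, 53 in Gbp7 and 39 in Gbp3, where 2 matches overlapped. A promoter was found for 44 of the 62 genes higher with NTEV, 22 of the 28 lower and 9358 of the 13261 tested. The kB consensus, searched on both strands, occurred in 13.6% of the promoters of the higher genes (6 of 44), 9.09% of those of the lower genes (2 of 22) and 8.71% of all. The ISRE occurred in 4.55% (2 of 44), 18.2% (4 of 22) and 2.69%. The core of the antioxidant response element to which NRF2 binds (TGACNNNGC) occurred in 20.5% (9 of 44), 9.09% (2 of 22) and 12.1%, and the core of the hypoxia response element (ACGTG) in 15.9% (7 of 44), 13.6% (3 of 22) and 22.4%. These matches are descriptions of letters in a window and not of binding.

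Genes of iron export, iron storage and antioxidant defence were also higher with NTEV. Slc40a1 encodes ferroportin, the exporter that releases iron from cells. It was at 127, 125 and 171 CPM with NTEV and at 51.5, 48.0 and 48.9 CPM with DNase-treated ATEV. The DNase-treated libraries lay close together and also below PBS (82.8 ± 11.4 CPM), and the log2 fold change was 1.51 ± 0.17 (adjusted p = 0.00319). Untreated ATEV were at 124 ± 25.0 CPM. Fth1, the heavy chain of the iron-storage protein ferritin and among the most abundant mRNAs, was at 18169, 18573 and 20796 CPM with NTEV and at 11781, 9423 and 9907 CPM with DNase-treated ATEV (log2 fold change 0.89 ± 0.16, adjusted p = 0.0267). The ferritin light chain Ftl1 was at 5977, 7199 and 8059 CPM against 4291, 4003 and 3946 CPM (log2 fold change 0.79 ± 0.16, adjusted p = 0.0479). Its processed copy Ftl1-ps1 was called as well, and reads of these near-identical sequences may be split between them. Slc11a2, an importer of ferrous iron, was at 80.0, 96.0 and 74.9 CPM against 53.1, 43.7 and 49.0 CPM (adjusted p = 0.0267). So an exporter, an importer and both ferritin chains were higher together, whereas the transferrin receptor Tfrc had a log2 fold change of 0.12 (adjusted p = 0.957). Cat, the peroxide-degrading enzyme catalase, was at 168, 177 and 230 CPM against 104, 93.9 and 90.1 CPM (log2 fold change 1.00 ± 0.16, adjusted p = 0.0199). Slc7a11, the cystine importer that feeds glutathione synthesis, was at 68.1, 77.7 and 73.0 CPM against 35.8, 30.2 and 18.4 CPM (log2 fold change 1.38 ± 0.27, adjusted p = 0.0385). Neither gene's groups overlapped. Hmox1, which degrades heme and is a classic NRF2 target, did overlap, with a log2 fold change of 1.07 ± 0.42 (adjusted p = 0.314).

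In the NRF2 list 5 of 24 tested members were higher with NTEV and 0 lower: Slc40a1, Cat, Fth1, Slc7a11 and Ftl1. The median log2 fold change was 0.46. Per library, the list's median log2 level relative to the PBS mean was 0.36, -0.11 and 0.26 with NTEV. With DNase-treated ATEV it was 0.0080, -0.33 and -0.34, so that NTEV replicate 2 lay below DNase-treated ATEV replicate 1. The list of metallothioneins and metal transport shares Slc40a1, Fth1 and Ftl1 with the NRF2 list. Of its 20 tested members, 5 were higher (Lcn2 and Slc11a2 in addition) and 1 lower, with a median of 0.20. Beside both lists, 0.468% of all genes tested were called higher and 0.211% lower. The lower member was Atp7b, a copper-exporting ATPase, at 0.173, 0.0801 and 0.348 CPM with NTEV and 1.49, 1.04 and 1.79 CPM with DNase-treated ATEV. These are low levels without overlap, and the log2 fold change was -2.88 ± 0.46 (adjusted p = 0.0199). Leaving out DNase-treated ATEV replicate 2 or 3 removed the calls of Fth1, Ftl1, Slc11a2, Cat, Slc7a11 and Atp7b. So did NTEV replicate 3 except for Atp7b, and NTEV replicate 2 except for Cat. Ftl1 was also lost without DNase-treated ATEV replicate 1 (highest adjusted p over the 6 genes 0.247).

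Surface receptors and complement moved in both directions. Marco, a scavenger receptor of macrophages that binds bacteria and particles, was at 354, 326 and 153 CPM with NTEV and at 67.1, 25.5 and 13.8 CPM with DNase-treated ATEV. All 3 NTEV libraries were above the PBS mean of 83.7 ± 45.6 CPM and all 3 DNase-treated libraries below it. The log2 fold change was 2.97 ± 0.58 (adjusted p = 0.0385). The complement component C3 was at 104, 125 and 112 CPM with NTEV and at 47.5, 51.8 and 60.7 CPM with DNase-treated ATEV (log2 fold change 1.09 ± 0.17, adjusted p = 0.0188). Clec4n, which encodes the C-type lectin Dectin-2, a receptor for fungal mannans, was at 8.45, 7.69 and 8.25 CPM against 3.23, 1.18 and 1.96 CPM (log2 fold change 1.94 ± 0.38, adjusted p = 0.0410). The related Clec4e, or Mincle, which binds mycobacterial glycolipid, was at 234, 268 and 284 CPM against 114, 72.8 and 140 CPM (log2 fold change 1.27 ± 0.21, adjusted p = 0.0229). Clec7a, or Dectin-1, the receptor for fungal beta-glucan, went the other way, at 2.04, 2.20 and 1.39 CPM against 4.19, 5.87 and 3.76 CPM (log2 fold change -1.28 ± 0.26, adjusted p = 0.0449). Of these 3 C-type lectins, 2 were thus higher and 1 lower with NTEV. The summed macrophage markers were higher with NTEV in the same libraries (5548 to 5925 against 3560 to 3909 CPM), mainly through Lyz2, while the median of that list was -0.25; their part in these differences was not tested. In the list of scavenger, Fc and complement receptors, 3 of 26 tested members were higher and 1 lower, with a median log2 fold change of -0.12. The shares of all genes tested were 0.468% higher and 0.211% lower.

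Fas, the death receptor whose ligand activated T cells carry, was at 7.45, 15.1 and 11.4 CPM with NTEV and at 1.93, 2.27 and 2.25 CPM with DNase-treated ATEV. The NTEV level was close to that with untreated ATEV (11.6 ± 1.88 CPM), the DNase-treated level to that of PBS (2.56 ± 0.88 CPM), and the log2 fold change was 2.39 ± 0.30 (adjusted p = 0.00618). Irak3, an inhibitor of Toll-like receptor signalling, was at 23.1, 22.3 and 19.04 CPM against 12.95, 10.9 and 12.2 CPM (adjusted p = 0.0229). It was the single call among 21 members of the Toll-like receptor list, where 0.679% of all genes tested were called. Scg2, a secretory granule protein, was at 6.04, 14.1 and 15.6 CPM against 1.69, 0.758 and 2.63 CPM (log2 fold change 2.80 ± 0.47, adjusted p = 0.0229). Siglece, an inhibitory receptor for sialic acid, Ptpn14, a protein tyrosine phosphatase, and Ly75, the antigen-uptake receptor DEC-205, had log2 fold changes of 2.16, 2.12 and 2.05 at levels of at most 3.20 CPM. Fpr2, a receptor for formyl peptides and serum amyloid A, had 107, 31 and 23 counts with NTEV and 4, 1 and 1 with DNase-treated ATEV. NTEV replicate 1 was the highest by far. Its log2 fold change of 4.41 ± 0.92 (adjusted p = 0.0490) was lost when any 1 of the 6 libraries was left out, up to an adjusted p of 0.250.

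Of the genes in these paragraphs on receptors and signalling, Fas lost its call only without DNase-treated ATEV replicate 2 (adjusted p = 0.0550). Marco, C3, Clec4n, Irak3, Ptpn14, Scg2, Ly75 and Clec7a lost it without any 1 of NTEV replicates 2 and 3 and DNase-treated ATEV replicates 2 and 3, and Scg2, Ly75 and Clec7a also without DNase-treated ATEV replicate 1 (highest adjusted p 0.232). Clec4e lost it without NTEV replicate 2 or 3 or DNase-treated ATEV replicate 2, and Siglece without NTEV replicate 2 or any DNase-treated ATEV library (highest adjusted p 0.114 and 0.193). With limma-voom, Clec7a, Ly75 and Fpr2 were not called (adjusted p = 0.0620, 0.0592 and 0.0852).

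Gbp7 and Gbp3, guanylate-binding GTPases that interferons induce and that attack the vacuoles of intracellular pathogens, were lower with NTEV than with DNase-treated ATEV. Gbp7 was at 0.897, 0.721 and 0.398 CPM with NTEV and at 4.19, 3.55 and 3.55 CPM with DNase-treated ATEV. PBS lay between them (1.78 ± 0.234 CPM), and untreated ATEV were far above both (26.7 ± 6.14 CPM). The log2 fold change was -2.44 ± 0.27 (adjusted p = 0.00319). Gbp3 was at 3.62, 2.52 and 2.68 CPM with NTEV and at 11.6, 9.09 and 8.72 CPM with DNase-treated ATEV, with PBS at 3.35 ± 0.972 CPM and untreated ATEV at 39.8 ± 4.80 CPM. Here the NTEV libraries lay at the PBS level and the DNase-treated ones above it (log2 fold change -1.73 ± 0.23, adjusted p = 0.00734). Gbp2 had the same direction without passing the test, at 1.31, 0.681 and 0.895 CPM against 4.04, 1.47 and 2.34 CPM (adjusted p = 0.120). With the replicate block for NTEV and DNase-treated ATEV alone, a setting chosen after seeing the data, its adjusted p was 0.0240. Iigp1 and Tgtp2, immunity-related GTPases, and the serpin Serpina3f had 0 counts over the 3 NTEV libraries and 4 each over the DNase-treated ones. These counts are too few for a comparison; the 3 genes entered the test through untreated ATEV, which gave 827, 997 and 302 counts. Gbp, Iigp1, Tgtp2 and Serpina3 genes have close copies, so counts may be shared between relatives.

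Of 19 tested GTPases and effectors that interferon-gamma induces, 2 were lower with NTEV and 1 higher, and the median log2 fold change was -0.65, or -0.58 with Iigp1, Tgtp2 and Serpina3f placed at the bound that a floor of 3 counts over the NTEV group gives. Gbp9, the fourth member with 0 counts in the NTEV libraries, allows no bound (2 counts with DNase-treated ATEV) and was left out of the latter. With the 6 libraries alone the median was -0.17. Among all genes tested 0.211% were called lower and 0.468% higher. The member higher with NTEV was Nos2, the inducible nitric oxide synthase, at 229, 179 and 277 CPM against 131, 109 and 126 CPM (log2 fold change 0.90 ± 0.17, adjusted p = 0.0332). The PBS mean of 183 ± 9.90 CPM lay above every DNase-treated library and above NTEV replicate 2. Against PBS the log2 fold change was 0.32 with NTEV (adjusted p = 0.313) and -0.58 with DNase-treated ATEV (adjusted p = 0.612). The call of Nos2 was lost without NTEV replicate 3 or any DNase-treated ATEV library (highest adjusted p 0.188).

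Among type I interferon-stimulated genes, 0 of 46 tested members were higher and 3 lower with NTEV, with a median log2 fold change of -0.04. For all genes tested these shares were 0.468% and 0.211%. Isg20, an antiviral exonuclease, was at 0.897, 0.801 and 0.845 CPM with NTEV and at 2.07, 2.70 and 4.21 CPM with DNase-treated ATEV (log2 fold change -1.82 ± 0.30, adjusted p = 0.0229). Samd9l, an interferon-inducible inhibitor of translation, was at 7.07, 5.57 and 5.72 CPM against 12.2, 12.3 and 14.6 CPM (log2 fold change -1.09 ± 0.20, adjusted p = 0.0290). For both, PBS (2.20 ± 0.502 and 16.2 ± 3.81 CPM) was with the DNase-treated group. Zbp1, a sensor of Z-form nucleic acid, was at 0.173, 0.160 and 0.0994 CPM against 1.01, 0.568 and 0.584 CPM (log2 fold change -2.24 ± 0.45, adjusted p = 0.0424). PBS was here at the NTEV level (0.196 ± 0.0943 CPM). Zbp1 was also the single call among 32 DNA-sensing genes, whose median was -0.03. Cgas and Tmem173, the DNA sensor and its adaptor STING, had log2 fold changes of -0.28 and -0.35 (adjusted p = 0.540 and 0.284). The canonical interferon-stimulated genes Isg15, Irf7 and Ifit1 had log2 fold changes of 0.03, -0.04 and 0.80 (adjusted p from 0.646 to 0.987). The calls of Isg20, Samd9l and Zbp1 were lost without any 1 of NTEV replicates 2 and 3 and DNase-treated ATEV replicates 2 and 3, and that of Zbp1 also without DNase-treated ATEV replicate 1 (highest adjusted p 0.221) and with limma-voom (adjusted p = 0.0891).

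**Figure D4:**
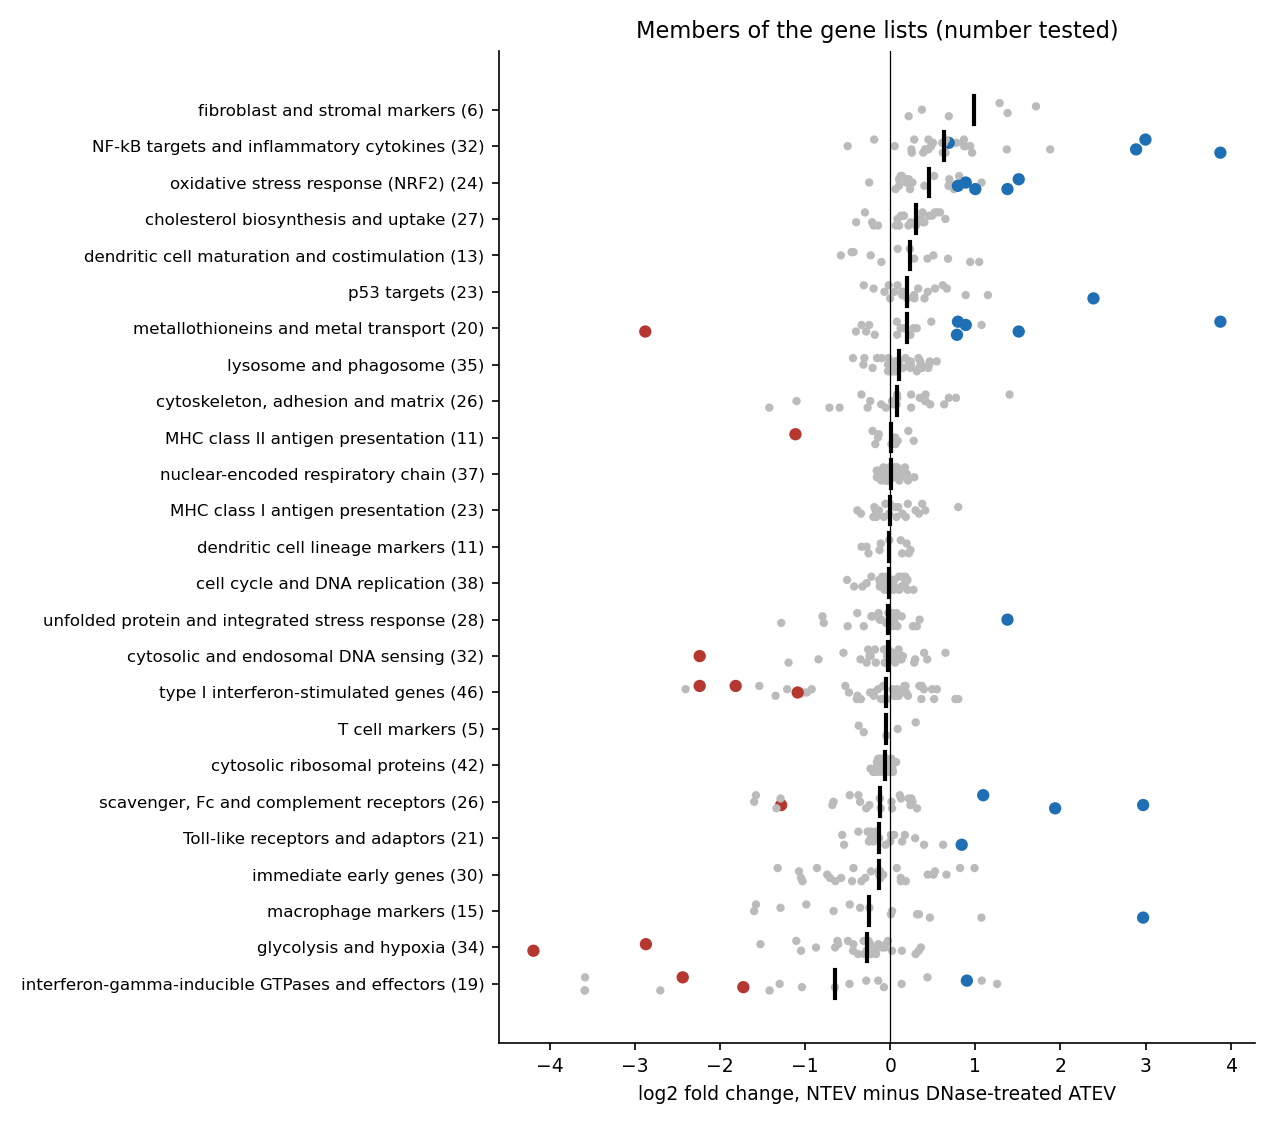
Log2 fold change of NTEV over DNase-treated ATEV for the tested members of each gene list, 1 row a list, with grey points for uncalled members, blue and red points for members called higher and lower with NTEV, a black bar for the list's median and a line at 0. Members with 0 counts in a group stand at their fitted value, which is no bound. The NF-kB and NRF2 lists have medians of 0.63 and 0.46, the interferon-gamma GTPase list -0.65 and the hypoxia and glycolysis list -0.28.

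Antigen presentation and costimulation showed 1 call. Cd74, the invariant chain that escorts MHC class II molecules, was at 69.4, 64.5 and 82.7 CPM with NTEV and at 119, 162 and 188 CPM with DNase-treated ATEV. The groups did not overlap, and the log2 fold change was -1.11 ± 0.22 (adjusted p = 0.0424), lost without any 1 of NTEV replicates 2 and 3 and DNase-treated ATEV replicates 2 and 3 (highest adjusted p 0.177). It was 1 of 11 tested class II genes, whose median log2 fold change was 0.01, while 0.211% of all genes tested were called lower. None of 23 class I presentation genes was called by edgeR (median -0.01), and H2-K1, B2m, Tap1 and Psmb9 had log2 fold changes of 0.18, 0.09, 0.37 and -0.06. Among 13 maturation and costimulation genes 0 were called (median 0.23). The costimulatory receptor Cd40 was at 13.9, 24.9 and 15.7 CPM against 7.80, 7.81 and 10.8 CPM (adjusted p = 0.102), while the CD28 ligands Cd80 and Cd86 had log2 fold changes of 0.68 and -0.58 (adjusted p = 0.205 and 0.174).

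Other falls were in genes outside the interferon lists. Adm, the hypoxia-induced vasodilator peptide adrenomedullin, was at 0.207, 0.160 and 0.547 CPM with NTEV and at 2.46, 6.77 and 6.93 CPM with DNase-treated ATEV. The log2 fold change was -4.19 ± 0.80 (adjusted p = 0.0375). PBS was at 8.94 ± 5.04 CPM and untreated ATEV at 1.07 ± 1.11 CPM. Ankrd37, an ankyrin-repeat protein and a target of hypoxia-inducible factor, was at 5.56, 1.00 and 7.46 CPM against 18.8, 36.6 and 46.4 CPM (log2 fold change -2.87 ± 0.59, adjusted p = 0.0479). In both genes DNase-treated ATEV replicate 1 was the lowest of its group and still above every NTEV library. These were the 2 calls among 34 glycolysis and hypoxia genes, of which 5 had a log2 fold change above 0 (median -0.28). Of all genes tested, 0.211% were called lower and 48.8% had a log2 fold change above 0. The list's median log2 level relative to the PBS mean was also taken in each library. It was -0.20, -1.04 and -0.50 with NTEV and -0.093, -0.37 and -0.21 with DNase-treated ATEV, so that the groups overlapped.

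Arg1, the arginase that competes with Nos2 for arginine, was at 2.17, 0.240 and 0.895 CPM with NTEV and at 6.45, 21.8 and 29.0 CPM with DNase-treated ATEV (log2 fold change -4.07 ± 0.80, adjusted p = 0.0399). PBS libraries varied widely (11.8 ± 10.5 CPM). Nos2 and Arg1, which both consume arginine, thus differed in opposite directions between NTEV and DNase-treated ATEV. F13a1, a clotting factor subunit made by macrophages, was at 6.83, 2.52 and 4.87 CPM against 18.4, 28.1 and 41.7 CPM (log2 fold change -2.63 ± 0.51, adjusted p = 0.0380). Both groups lay below PBS (115 ± 50.6 CPM). Selenbp1, a selenium-binding protein with methanethiol oxidase activity, was at 7.70, 14.5 and 17.0 CPM against 46.2, 80.8 and 127 CPM (log2 fold change -2.70 ± 0.53, adjusted p = 0.0386), with PBS at 122 ± 29.4 CPM. Ccr1, a receptor for Ccl5 and related chemokines, was at 4.97, 5.13 and 4.87 CPM against 12.3, 14.4 and 23.7 CPM (log2 fold change -1.75 ± 0.32, adjusted p = 0.0332). Ccl5 was higher and this receptor lower with NTEV. Grin1, an NMDA receptor subunit, had 1, 2 and 3 counts with NTEV and 14, 37 and 44 with DNase-treated ATEV (adjusted p = 0.0380). The calls of Adm, Ankrd37, Arg1, F13a1, Selenbp1, Ccr1 and Grin1 were lost without any 1 of NTEV replicates 2 and 3 and DNase-treated ATEV replicates 2 and 3, and that of Grin1 also without NTEV replicate 1 (highest adjusted p 0.221). With limma-voom, Adm, Ankrd37, Arg1 and F13a1 were not called (adjusted p = 0.0811, 0.0664, 0.101 and 0.0639).

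**Figure D5:**
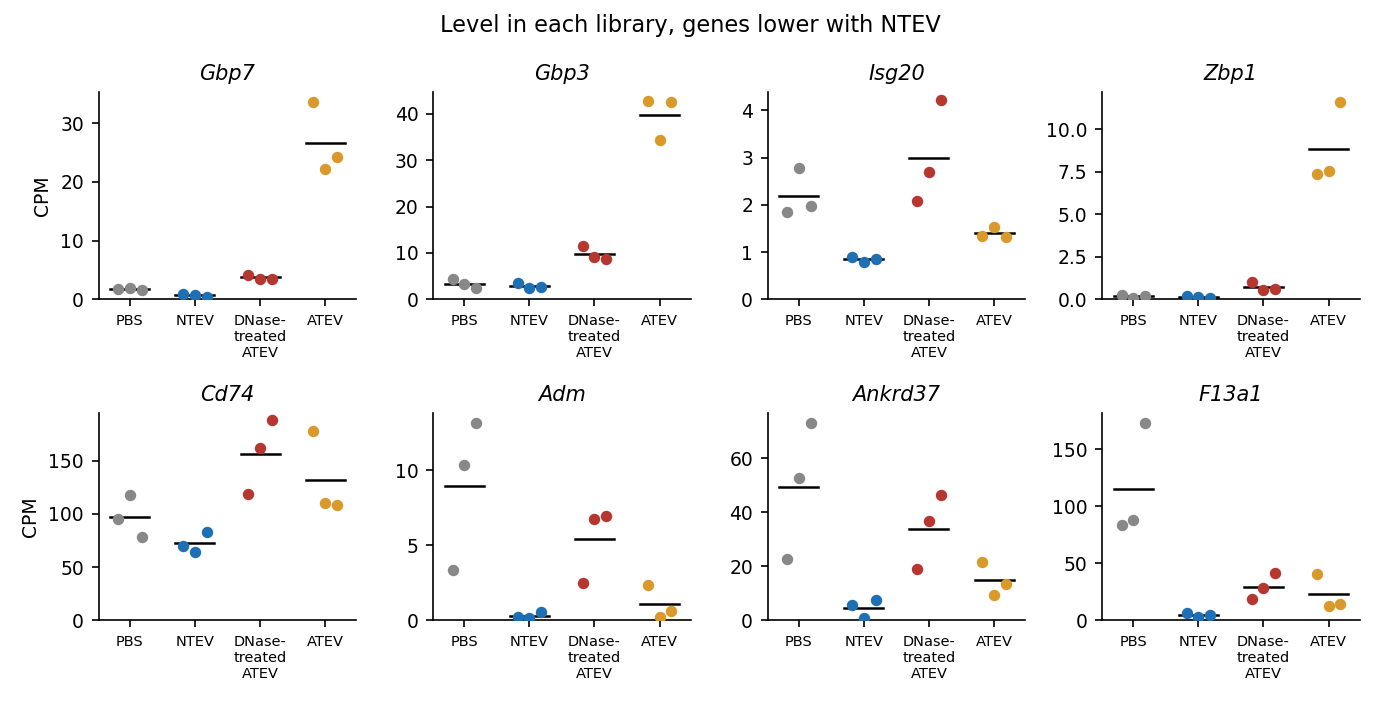
CPM (linear axis from 0) of 8 genes lower with NTEV in each library, 1 panel a gene, with the 4 groups on the horizontal axis, points for libraries and a black line for the group mean. In each panel the 3 NTEV points lie below the 3 DNase-treated ATEV points; for Gbp3 the NTEV points are at 2.52 to 3.62 CPM, the DNase-treated points at 8.72 to 11.6 CPM and the untreated ATEV mean at 39.8 CPM.

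The remaining lists held few calls or none, where 0.679% of all genes tested were called. By edgeR 0 members were called among 35 lysosome and phagosome genes (median log2 fold change 0.11), 38 cell cycle genes (-0.02), 27 cholesterol genes (0.30), 30 immediate early genes (-0.14), 42 ribosomal protein genes (-0.07), 37 respiratory chain genes (0.01), 26 cytoskeleton and adhesion genes (0.08), 11 dendritic cell lineage markers (-0.01), 5 T cell markers (-0.05) and 6 fibroblast markers (0.99). Fas was the 1 call among 23 p53 targets (median 0.20), Slc7a11 the 1 call among 28 stress response genes (-0.02) and Marco the 1 call among 15 macrophage markers (-0.25), of which 7 had a log2 fold change above 0. Lyz2, the macrophage lysozyme, was at 2529, 2861 and 3170 CPM with NTEV and at 1427, 1198 and 1449 CPM with DNase-treated ATEV, without overlap but not called (adjusted p = 0.0586). Its adjusted p was 0.0400 with the replicate block for these 2 groups alone, a setting chosen after seeing the data. Of the uncalled named genes, 0 gained a call with the block over 12 libraries or with the 6 libraries alone, and 11 with the block over the 6 libraries.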

How the data were processed

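Levels are the authors' deposited whole-number counts per gene, 1 column per library; no column lacked a sample (0 left out). Per the submitters' processing notes, build mm9, Cufflinks 2.1.1, TopHat2 2.0.11, TopHat and bcl2fastq 2.19 were used, and the labels' protocols name a TruSeq stranded mRNA kit. Counter, annotation and strand setting: not given in the sources used here. Overlapping or antisense genes may therefore share reads. Identifiers were matched to GENCODE M21 symbols (42250 of 42687; 437 not).

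These counts went into edgeR 4.0.16 under R 4.3.3: filterByExpr by group (minimum count 10, minimum total 15), TMM scaling, and 1 quasi-likelihood model of all 12 libraries with a mean per group, two-sided, with Benjamini-Hochberg adjustment over 13261 genes and a call at an adjusted p under 0.05. All adjusted p-values come from this test unless another tool is named. Standard errors derive from the F statistic. The common biological coefficient of variation was 0.183. DESeq2 1.42.0, limma-voom 3.58.1, other scalings, other filters, a fit of the 6 libraries, replicate blocks and left-out libraries were alternatives. On simulated counts for 13261 genes the fit recovered 59.2% of the genes changed by 1 on the log2 scale and 92.0% of those changed by 2 (100 changed genes each, those that passed the filter counted), with 6 false calls. The simulated counts were independent draws from the model's own dispersions, with no shift shared by the genes of a library. These rates therefore may not hold for the real libraries, whose deviations were correlated.

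Groups came from the treatment labels and replicate numbers from the titles. Deviations of same-numbered NTEV and DNase-treated ATEV libraries from their group means correlated at 0.62, 0.35 and 0.13. Libraries of different number ran from -0.54 to 0.38, the highest for NTEV replicate 2 with DNase-treated ATEV replicate 3. Only replicate 1 thus stood out, and no label ties the numbers to a batch. A pairing by number entered alternative fits and not the main test. With PBS the same-numbered correlations were 0.519, 0.0048 and 0.0053 for NTEV and 0.440, -0.058 and 0.204 for DNase-treated ATEV. Replicate 1 of PBS thus deviated together with replicate 1 of both groups. PBS replicate 3 with NTEV replicate 2, of different number, reached 0.438. Replicates differed by more than counting noise (chi-square per degree of freedom 13.6 to 119 in the 2 groups).

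The comparison and the 26 gene lists were chosen with earlier results of these data known; lists are described by counts and medians, with no test. Named were the 10 largest rises and 10 largest falls among calls without overlap whose higher group averaged 1 CPM or more, predicted genes left out, up to 3 called members of each list, or its 2 smallest p where none was called, and a fixed panel (of which Il1b had too few counts to be tested). Nfkbia, Ftl1, Ftl1-ps1, Slc11a2, Clec4e, Clec7a, Tfrc, Hmox1, Iigp1, Tgtp2, Serpina3f, Gbp9, Fcgr1, Cd22 and the genes of the closing section fall outside this rule and were chosen after their values were seen. The same holds for Sirpa and for the marker genes named for low or absent counts. Promoter sequences come from RefSeq, whose build is not the one the submitters named; they carry no read data. Values of some genes are not reported here.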

Additional observations from a re-analysis of the deposited data

How the results depend on the processing

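Of 1235 values of the named genes under the alternatives, 1014 kept their side of the threshold, 181 lost a call and 40 gained one. Where the gene was called in the main or the alternative fit, 0 values changed direction. A change of direction in a gene called in neither fit was counted among the 1014. The count of 90 calls (62 higher, 28 lower) stayed within 1.5 times under other size factors (93), upper quartile scaling (70), limma-voom (71), the stricter filter (88) and without replicate 1 of both groups (108), though limma-voom kept 70 of the 90 calls and the last of these fits 63. It rose with DESeq2 (391; 263 and 128) and with no filter (319; 224 and 95), and fell with the 6 libraries alone (2; 2 and 0). The replicate block gave 41 (31 and 10) over 12 libraries, 609 (422 and 187) over the 6 libraries and 205 (150 and 55) when it paired NTEV and DNase-treated ATEV alone, a setting chosen after seeing the data. Of the 90 calls these blocks held 39, 89 and 90. Among the uncalled named genes the last of them gained Lyz2, Gbp2 and Itgb2 (adjusted p = 0.0400, 0.0240 and 0.0319). Leaving out 1 library gave 4 to 321 calls, 2 to 232 higher and 2 to 89 lower. The cause of these shifts was not tested, beyond the fewer samples in some fits.

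The 306 calls of NTEV against PBS became 861 with DESeq2 and 34 to 1685 with 1 library left out, and the 0 calls of DNase-treated ATEV against PBS became 38 with DESeq2, 1 with the replicate block and 0 to 8 with 1 library left out. Of 425 list medians, 400 moved by less than the spread. The others were, for the interferon-gamma list, -0.47 with no filter, -0.85 with the stricter one, -0.17 with the 6 libraries with or without the block, -0.50 without replicate 1 of both groups and -0.97 to -0.43 with 1 library left out; for Toll-like receptors -0.093 with limma-voom, -0.18 without replicate 1 of both and -0.14 to -0.047; for macrophage markers -0.12 with no filter, -0.44 without replicate 1 of both and -0.34 to 0.017; for type I interferon genes 0.079 without replicate 1 of both and -0.11 to 0.089; for MHC class II -0.13 with no filter and -0.12 to 0.035; and for fibroblast markers 0.23 with no filter. With 1 library left out the range was -0.018 to 0.11 for MHC class I, 0.52 to 0.69 for NF-kB targets, 0.34 to 0.69 for NRF2 and -0.010 to 0.25 for the cytoskeleton. The cause was not tested. Depth limits genes with few counts in 1 or both groups, such as Fpr2, Grin1, Zbp1 and Iigp1.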

Other observations

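Genes outside the rule for named genes, chosen after their values were seen, are given here as single genes among the 90 calls, with no list behind them. Slc39a4, the zinc importer ZIP4, was at 7.94, 10.97 and 7.91 CPM with NTEV and at 2.02, 2.23 and 2.92 CPM with DNase-treated ATEV, with PBS at 1.77 ± 0.414 CPM (log2 fold change 1.90 ± 0.24, edgeR adjusted p = 0.00618). Slc6a12, a carrier of betaine and GABA, was at 60.3, 55.6 and 57.9 CPM against 22.3, 25.9 and 24.5 CPM (log2 fold change 1.26 ± 0.18, adjusted p = 0.00975). Hsd11b1, which regenerates active glucocorticoid, and Lpcat2, which makes platelet-activating factor, had log2 fold changes of 1.31 and 1.11 (adjusted p = 0.00975 for both). Ptges, the prostaglandin E synthase, was at 4.73, 5.61 and 7.01 CPM against 2.79, 2.04 and 1.92 CPM (adjusted p = 0.0399), and Ptgr1, which inactivates prostaglandins and leukotriene B4, had a log2 fold change of 1.08 (adjusted p = 0.0464, or 0.0639 with limma-voom). Cybb, the catalytic subunit of the phagocyte NADPH oxidase, was at 951, 1052 and 1001 CPM against 686, 393 and 382 CPM (log2 fold change 1.04 ± 0.20, adjusted p = 0.0380). Ebi3, a subunit of the cytokines IL-27 and IL-35, was at 16.4, 25.0 and 18.1 CPM against 6.88, 8.43 and 9.22 CPM (adjusted p = 0.0151). Hp, which encodes the hemoglobin-binding protein haptoglobin, was at 119, 71.2 and 81.4 CPM against 36.3, 25.0 and 39.4 CPM (adjusted p = 0.0358).

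Ighm, the immunoglobulin mu heavy chain, was at 18.9, 11.4 and 11.04 CPM with NTEV and at 34.0, 57.4 and 45.3 CPM with DNase-treated ATEV, with PBS at 63.1 ± 21.3 CPM (log2 fold change -1.72 ± 0.27, adjusted p = 0.0188). It was the 1 call among only 3 tested B cell markers. Tnfsf13b, the B cell survival factor BAFF, was at 10.7, 6.41 and 8.85 CPM against 17.1, 19.8 and 19.9 CPM (adjusted p = 0.0208). Pou2f2, a transcription factor of B cells and macrophages, was higher with NTEV (43.3, 47.1 and 32.3 CPM against 15.9, 19.1 and 17.0 CPM, adjusted p = 0.0168). All genes of these paragraphs lost their call without DNase-treated ATEV replicate 2, which left 4 of the 90 calls.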
